A study of Mus musculus with 15 samples.

Results

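The genes described here encode 10 proteins of the Bcl2 family, which decides at the mitochondrion whether a cell survives or dies by apoptosis. They were Bcl2, Bcl2l1 and Mcl1, which promote survival, Bax and Bak1, the effectors of death, and Bcl2l11, Bid, Bad, Pmaip1 and Bbc3, the BH3-only genes. Members were chosen by gene symbol, and all 10 were found among the 23284 entries of the expression table and passed the filter on low values. RNA-seq had been carried out on sorted OT-I CD8 T cells, mouse T cells with a transgenic receptor for the ovalbumin peptide SIINFEKL. The cultured cells, but not the naive cells, had been stimulated with bone marrow-derived dendritic cells coated with that peptide. There were 5 populations of 3 libraries each. The cocktail CD44loCD62L+, cocktail CD44+CD62L+ and cocktail CD44+CD62L- populations were sorted on day 14 from a culture in IL-7, IL-21, 2-deoxyglucose, an inhibitor of glycolysis, and TWS119, an inhibitor of glycogen synthase kinase 3. The IL-2 CD44+CD62L- population was sorted on day 14 from a culture in IL-2. Naive OT-I cells were not cultured (day 0), with a gate that the sample labels call CD44loCD62L+ and the design text CD44-CD62L+. CD44 marks antigen-experienced T cells and CD62L is a lymph node homing receptor. The libraries are described as technical replicates, so p-values reflect how far libraries of 1 sorted population differ, and say nothing of variation among mice or separate cultures. Expression is in FPKM, fragments scaled by transcript length and by library size, so levels of different genes are compared per length.

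In background terms, pro-survival proteins hold the effectors in check, and BH3-only proteins relieve that restraint or activate the effectors directly. Active Bax and Bak form pores in the outer mitochondrial membrane, cytochrome c escapes, and caspases are activated by way of Apaf1. In T cells, Bcl2 is maintained by signals such as IL-7 and supports naive and memory cells, Bcl2l1 (Bcl-xL) is induced on activation, and Mcl1 is needed at most stages. Bim, encoded by Bcl2l11, opposes Bcl2 and removes T cells when a response contracts. Puma (Bbc3) and Noxa (Pmaip1) are known as p53 targets, and Bcl2l11 and Bbc3 also as targets of FOXO transcription factors.

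Promoter windows from RefSeq, 250 bases before to 50 bases after an annotated start (build GRCm38.p6), were taken for 9 of the 10 members, 15 windows in all. Pmaip1 was left out and is not reported here. They were searched on both strands for 12 motifs. The FOXO motif GTAAACA was in 3.65% of all 32851 windows and in 2 of the 15 member windows, those printed here for Bcl2l11 (chr2:128125788-128126087, plus strand) and Bbc3 (chr7:16310011-16310310, plus strand). These are shown as the member windows that held this motif, and the part of FOXO factors in the results was not tested. Bcl2 (chr1:106714241-106714540, minus strand), which was called together with Bcl2l11 in the comparison of the culture conditions, is shown beside them and has no match in this window. Capitals mark the FOXO motif, which reads in reverse complement in Bbc3.
Bcl2l11: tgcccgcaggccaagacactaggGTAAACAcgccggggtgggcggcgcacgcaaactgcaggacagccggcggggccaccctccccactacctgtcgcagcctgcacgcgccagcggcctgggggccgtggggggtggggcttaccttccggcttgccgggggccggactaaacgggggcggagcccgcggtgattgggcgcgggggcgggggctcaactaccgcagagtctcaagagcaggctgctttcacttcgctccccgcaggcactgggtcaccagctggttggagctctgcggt
Bbc3: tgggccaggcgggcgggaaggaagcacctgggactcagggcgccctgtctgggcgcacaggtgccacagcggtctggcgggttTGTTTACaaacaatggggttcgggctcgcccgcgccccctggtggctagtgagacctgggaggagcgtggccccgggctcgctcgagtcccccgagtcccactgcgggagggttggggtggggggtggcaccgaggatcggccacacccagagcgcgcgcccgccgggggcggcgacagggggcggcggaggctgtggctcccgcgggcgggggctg
Bcl2: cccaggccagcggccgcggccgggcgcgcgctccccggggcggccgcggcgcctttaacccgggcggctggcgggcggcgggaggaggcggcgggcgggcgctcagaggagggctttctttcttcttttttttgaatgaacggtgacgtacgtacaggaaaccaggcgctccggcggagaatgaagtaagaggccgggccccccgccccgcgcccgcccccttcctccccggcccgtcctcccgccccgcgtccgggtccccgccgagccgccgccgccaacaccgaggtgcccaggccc
Relative to the annotated start the motif began at -227 in Bcl2l11 and at -167 in Bbc3. A match is a description of the letters and not evidence of binding. Of the other motifs, the ETS motif CCGGAAG (8.86% of all windows) was in windows of Bcl2l11, Bcl2l1 and Mcl1, and the E-box CACGTG (7.15%) in those of Bbc3 and Bax. The TCF/LEF motif CTTTGAA (5.14%) was in that of Bax, and TGACGT (7.51%), which is part of the cyclic AMP response element TGACGTCA (1.79%), in that of Bcl2. The Sp/KLF motif GGGGCGGGG (11.4%) was in 6 member windows, those of Bcl2, Bcl2l11, Bid, Bbc3, Bax and Bad. No member window held TTCNNNGAA (STAT, 8.30%), the NF-kappaB motif (0.411%), TGATGCAA (ATF4/CHOP, 0.895%), TTTCCCGC (E2F, 1.07%), CTTTGAT (TCF/LEF, 3.73%) or the full cyclic AMP response element.

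Of the 7 CD8 T cell markers, 6 were matched in the table, and the mean of each reached 1 FPKM in every population, their sum being 2171 to 2445 FPKM in cocktail libraries, 1853 to 1875 in IL-2 libraries and 3195 to 3206 in naive libraries. Markers of other cell types differed between populations. The 9 B cell markers summed to 2.15 to 3.06 FPKM in cocktail, 6.27 to 6.92 in IL-2 and 42.9 to 44.1 in naive libraries, with Ms4a1 and Pax5 listed at 0 in every cultured population. The 15 dendritic cell and macrophage markers matched of 16 summed to 268 to 301 FPKM in cocktail, 175 to 180 in IL-2 and 332 to 335 in naive libraries, with Clec9a listed at 0 in every cultured population. The 9 erythroid, platelet and neutrophil markers summed to 1.49 to 5.42 FPKM in cocktail, 0.216 to 0.345 in IL-2 and 28.8 to 33.3 in naive libraries. Sums of the 4 NK cell markers were 29.7 to 43.2, 12.99 to 13.9 and 23.9 to 24.4 FPKM in cocktail, IL-2 and naive libraries, and those of the 4 CD4 T cell markers 8.14 to 11.5, 16.5 to 17.4 and 7.74 to 9.41 FPKM. Most of the NK sum was Eomes, which CD8 T cells also express, with means of 28.1 to 39.9 FPKM in cocktail, 10.3 in IL-2 and 19.6 in naive cells, while Ncr1 was at most 0.064 FPKM. Klrb1c had means of 0.271 to 0.848 FPKM in the cocktail populations, 1.77 in IL-2 cells and 0.236 in naive cells. Most of the CD4 sum was Zbtb7b in the cultures (7.73 to 15.03 FPKM) and Cd40lg in naive cells (7.80 FPKM), and the mean of Cd4 was at most 0.305 FPKM. Cst3 and Ctss held most of the dendritic cell and macrophage sum, with Cst3 at 110.3 to 145.5 FPKM in cocktail, 129 in IL-2 and 64.2 in naive cells. Ctss was at 72.1 to 111.8 FPKM in cocktail, 24.5 in IL-2 and 143.6 in naive cells. Smaller markers differed more, with means in cocktail CD44+CD62L- and IL-2 cells of 21.3 and 0.427 FPKM for Lyz2 and 13.7 and 0.622 for H2-Ab1. Of the 13 such markers tested, 10 stood higher and 3 lower in cocktail CD44+CD62L- than in IL-2 cells. Fcer1g was among the lower, at 3.35 against 15.9 FPKM. The part of these markers in the results on Bcl2 family genes was not tested, and in these bulk samples fewer cells of a type and less RNA per cell cannot be told apart.

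**Figure D1:**
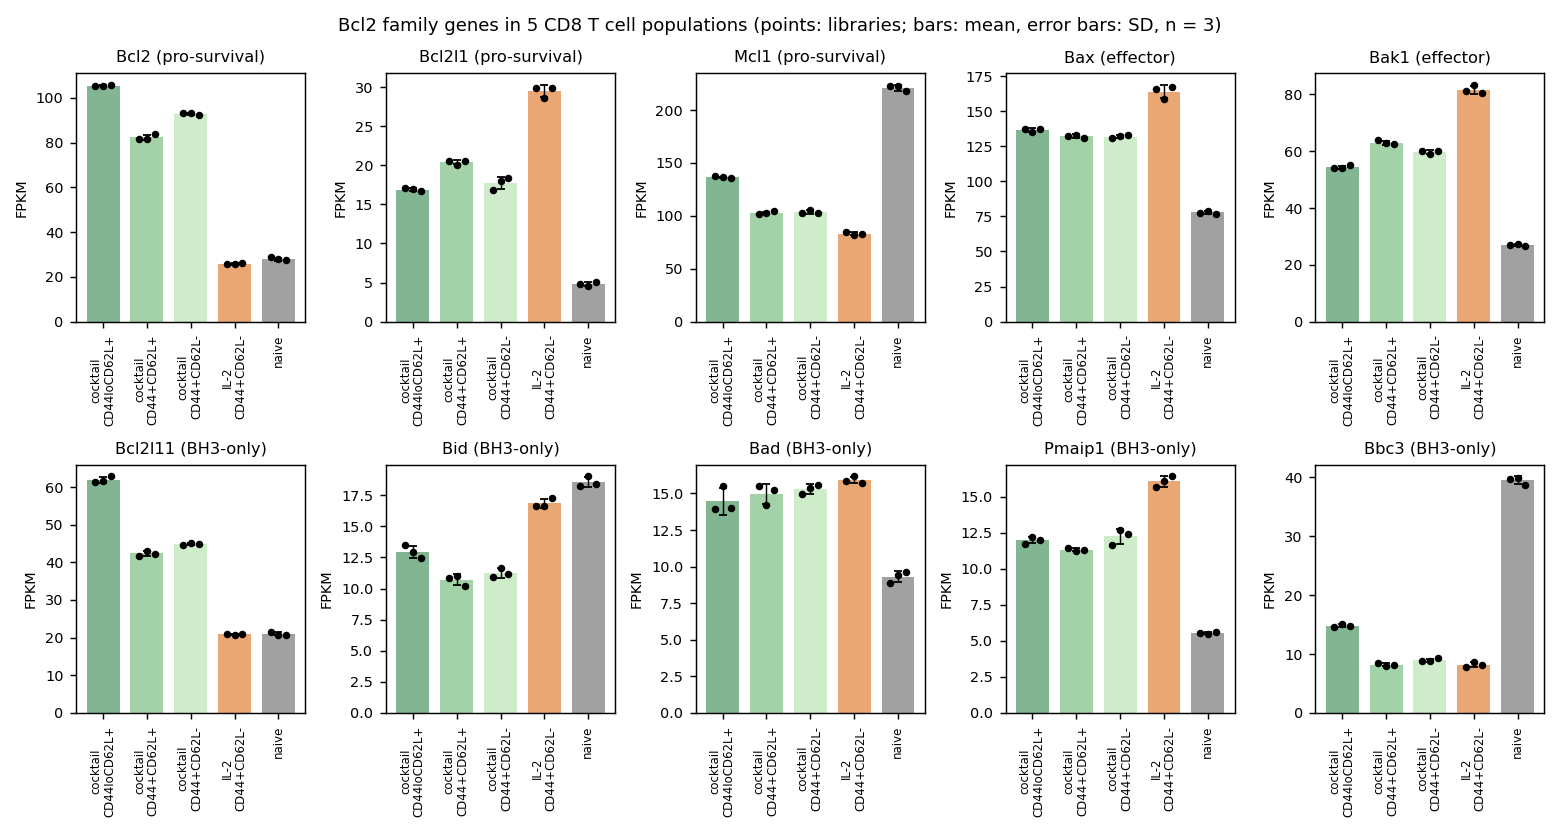
FPKM of the 10 Bcl2 family genes in the 3 cocktail populations, the IL-2 population and naive cells. Points are libraries, bars are means and error bars SD (n = 3). Bcl2 and Bcl2l11 were highest in the 3 cocktail populations, Bcl2l1, Bax, Bak1 and Pmaip1 in the IL-2 cells, and Mcl1 and Bbc3 in naive cells.

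Among the pro-survival genes, Bcl2 (chromosome 1, 106538178 to 106714274 of GRCm38) was at 105, 105 and 106 FPKM in the cocktail CD44loCD62L+ libraries, 81.8, 81.7 and 83.6 in cocktail CD44+CD62L+, and 93.2, 93.1 and 92.3 in cocktail CD44+CD62L-. It was at 25.6, 25.6 and 26.4 FPKM in IL-2 libraries and 28.7, 27.9 and 27.4 in naive libraries. All 9 cocktail libraries thus lay far above the IL-2 and naive libraries, and no neighbouring populations in the order of means overlapped. Between the cultures at the same gate, Bcl2 was higher in the cocktail CD44+CD62L- cells than in the IL-2 cells, with a log2 fold change of 1.80 ± 0.0164 (SE, limma adjusted p = 1.19e-17). Against naive cells the log2 fold change was 1.88 ± 0.0164 in cocktail CD44loCD62L+ cells (adjusted p = 1.73e-18), 1.53 in cocktail CD44+CD62L+ cells and 1.70 in cocktail CD44+CD62L- cells (limma). The IL-2 cells differed from naive cells by -0.11 ± 0.0164, which passed the adjusted p (limma, 2.79e-05) but not the minimum fold of 2.

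Bcl2l1 (chromosome 2, 152780668 to 152831728), which encodes Bcl-xL, had another order. Its values were 17.0, 17.0 and 16.7 FPKM in the cocktail CD44loCD62L+ libraries, 20.6, 20.1 and 20.5 in cocktail CD44+CD62L+, and 16.8, 17.98 and 18.3 in cocktail CD44+CD62L-. They were 30.0, 28.7 and 30.0 FPKM in IL-2 libraries and 4.76, 4.62 and 5.13 in naive libraries. The IL-2 libraries were the highest and the naive libraries the lowest, and the only neighbours to overlap were the cocktail CD44+CD62L- and cocktail CD44loCD62L+ populations. Relative to naive cells Bcl2l1 rose in every cultured population, by 2.39 ± 0.0344 on the log2 scale in IL-2 cells (limma adjusted p = 1.53e-16), and by 1.62, 1.88 and 1.68 in the cocktail CD44loCD62L+, cocktail CD44+CD62L+ and cocktail CD44+CD62L- cells. The cocktail CD44+CD62L- cells stood 0.71 below the IL-2 cells on that scale (log2 fold change -0.71 ± 0.0344), under the minimum fold.

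Mcl1 (chromosome 3, 95658788 to 95663176), a short-lived survival protein, was at 137, 136 and 136 FPKM in the cocktail CD44loCD62L+ libraries, 102, 102 and 104 in cocktail CD44+CD62L+, and 103, 106 and 102 in cocktail CD44+CD62L-. The IL-2 libraries had 84.5, 82.2 and 82.8 FPKM and the naive libraries 222, 223 and 218. Naive libraries were thus the highest and IL-2 libraries the lowest, and the cocktail CD44+CD62L+ and cocktail CD44+CD62L- libraries overlapped. Mcl1 fell relative to naive cells in the IL-2 population (-1.40 ± 0.0140 on the log2 scale, limma adjusted p = 3.38e-18), the cocktail CD44+CD62L+ cells (-1.09) and the cocktail CD44+CD62L- cells (-1.08). For the CD44loCD62L+ gate the log2 fold change against naive cells was -0.69 ± 0.0140, under the minimum fold.

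The effector genes were lowest in naive cells. Bax (chromosome 7, 45461697 to 45466898), which moves from the cytosol to mitochondria when activated, was at 137, 135 and 137 FPKM in the cocktail CD44loCD62L+ libraries, 133, 133 and 131 in cocktail CD44+CD62L+, and 131, 132 and 133 in cocktail CD44+CD62L-. It was at 166, 158 and 167 FPKM in IL-2 libraries and 77.6, 78.9 and 76.9 in naive libraries. The naive libraries were the lowest and the IL-2 libraries the highest, and the cocktail CD44+CD62L+ and cocktail CD44+CD62L- libraries overlapped. Bax rose in IL-2 cells relative to naive cells, with a log2 fold change of 1.06 ± 0.0178 (limma adjusted p = 7.40e-16), but under quantile normalization the change was 0.75 and the call was lost. In the cocktail populations the log2 fold changes against naive cells were 0.80, 0.76 and 0.75 for CD44loCD62L+, CD44+CD62L+ and CD44+CD62L- cells, all under the minimum fold.

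Bak1 (chromosome 17, 27019810 to 27029009), whose protein resides at the mitochondrial membrane, was at 54.0, 54.2 and 54.98 FPKM in the cocktail CD44loCD62L+ libraries, 63.8, 62.9 and 62.5 in cocktail CD44+CD62L+, and 60.2, 59.1 and 60.2 in cocktail CD44+CD62L-. The IL-2 libraries had 81.2, 83.3 and 80.4 FPKM and the naive libraries 27.1, 27.3 and 26.5. No neighbouring populations overlapped, and IL-2 libraries were again the highest and naive libraries the lowest. Relative to naive cells Bak1 rose in the IL-2 population (1.56 ± 0.0158 on the log2 scale, limma adjusted p = 3.56e-18), in cocktail CD44+CD62L+ cells (1.20) and in cocktail CD44+CD62L- cells (1.12). For cocktail CD44loCD62L+ cells it was 0.99 ± 0.0158, just under the minimum fold, and it passed with a pseudocount of 0.1 FPKM (1.01) or quantile normalization (1.02).

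Of the BH3-only genes, Bcl2l11 (chromosome 2, 128126038 to 128162547), which encodes Bim, was at 61.4, 61.6 and 62.8 FPKM in the cocktail CD44loCD62L+ libraries, 41.8, 43.0 and 42.2 in cocktail CD44+CD62L+, and 44.7, 45.2 and 45.0 in cocktail CD44+CD62L-. The IL-2 libraries had 20.9, 20.8 and 20.9 FPKM and the naive libraries 21.4, 20.8 and 20.8. As with Bcl2, every cocktail library lay above every IL-2 and naive library, while IL-2 and naive libraries overlapped. Bcl2l11 was higher in the cocktail CD44+CD62L- cells than in the IL-2 cells (log2 fold change 1.07 ± 0.0150, limma adjusted p = 7.04e-16), a call lost at a pseudocount of 5 FPKM (0.95). Against naive cells it rose in the cocktail CD44loCD62L+ cells (1.52 ± 0.0150, limma adjusted p = 6.29e-18) and the cocktail CD44+CD62L- cells (1.06, and 0.94 at a pseudocount of 5 FPKM, where the call was lost). The cocktail CD44+CD62L+ cells stood just under the minimum fold (0.98), and passed at a pseudocount of 0.1 FPKM (1.01). Between IL-2 and naive cells the log2 fold change was -0.0090 ± 0.0150 (limma adjusted p = 0.576).

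Bbc3 (chromosome 7, 16308393 to 16318205), which encodes Puma, was at 14.6, 15.1 and 14.8 FPKM in the cocktail CD44loCD62L+ libraries, 8.49, 7.93 and 8.11 in cocktail CD44+CD62L+, and 8.85, 8.75 and 9.28 in cocktail CD44+CD62L-. It was at 7.79, 8.63 and 8.15 FPKM in IL-2 libraries and 39.8, 39.99 and 38.8 in naive libraries. Naive libraries were far above all others, the cocktail CD44loCD62L+ libraries came next, and the IL-2 and cocktail CD44+CD62L+ libraries overlapped. Relative to naive cells Bbc3 fell in all 4 cultured populations, with log2 fold changes of -1.36 ± 0.0335 in cocktail CD44loCD62L+ (limma adjusted p = 9.94e-14), -2.14 in cocktail CD44+CD62L+, -2.02 in cocktail CD44+CD62L- and -2.14 in IL-2 cells. Between the cocktail CD44loCD62L+ and cocktail CD44+CD62L+ cells its difference was 0.79 ± 0.0335 on the log2 scale (limma adjusted p = 1.37e-10), the largest among the 10 genes in that comparison but under the minimum fold.

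Pmaip1, which encodes Noxa, a BH3-only protein that binds Mcl1, was at 11.8, 12.2 and 12.01 FPKM in the cocktail CD44loCD62L+ libraries, 11.4, 11.3 and 11.3 in cocktail CD44+CD62L+, and 11.7, 12.7 and 12.4 in cocktail CD44+CD62L-. The IL-2 libraries had 15.7, 16.1 and 16.4 FPKM and the naive libraries 5.57, 5.45 and 5.61. IL-2 libraries were the highest and naive libraries the lowest, and the cocktail CD44+CD62L- and cocktail CD44loCD62L+ libraries overlapped. Pmaip1 rose in IL-2 cells relative to naive cells (1.38 ± 0.0275 on the log2 scale, limma adjusted p = 4.84e-15), a call lost at a pseudocount of 5 FPKM (0.9988). In cocktail CD44+CD62L- cells its log2 fold change against naive cells was 1.02, and the call was lost under quantile normalization (0.93), at a pseudocount of 5 FPKM (0.71) and without replicate 2 of that population (0.99). In cocktail CD44loCD62L+ cells (0.99) and cocktail CD44+CD62L+ cells (0.92) it was under the minimum fold, and both passed at a pseudocount of 0.1 FPKM (1.10 and 1.02). Without replicate 1 of the cocktail CD44loCD62L+ cells, their value was 1.002 and passed.

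Bid and Bad were not called in any comparison. Bid (chromosome 6, 120891930 to 120916853), which links death receptors to mitochondria once cut by caspase 8, averaged 12.95 ± 0.496, 10.7 ± 0.442 and 11.2 ± 0.402 FPKM in cocktail CD44loCD62L+, CD44+CD62L+ and CD44+CD62L- cells, 16.9 ± 0.346 in IL-2 cells and 18.6 ± 0.388 in naive cells (SD, n = 3 each). Its libraries ran between 10.2 and 19.0 FPKM, with naive libraries the highest and the cocktail CD44+CD62L+ and cocktail CD44+CD62L- libraries overlapping. Bad (chromosome 19, 6941861 to 6951899), which is held inactive by phosphorylation, averaged 14.5 ± 0.922, 14.98 ± 0.673 and 15.3 ± 0.336 FPKM in the same cocktail populations, 15.9 ± 0.225 in IL-2 cells and 9.31 ± 0.398 in naive cells (SD, n = 3 each). Naive libraries were the lowest for Bad, at 8.88 to 9.66 FPKM, and the cocktail libraries overlapped among themselves.

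**Figure D2:**
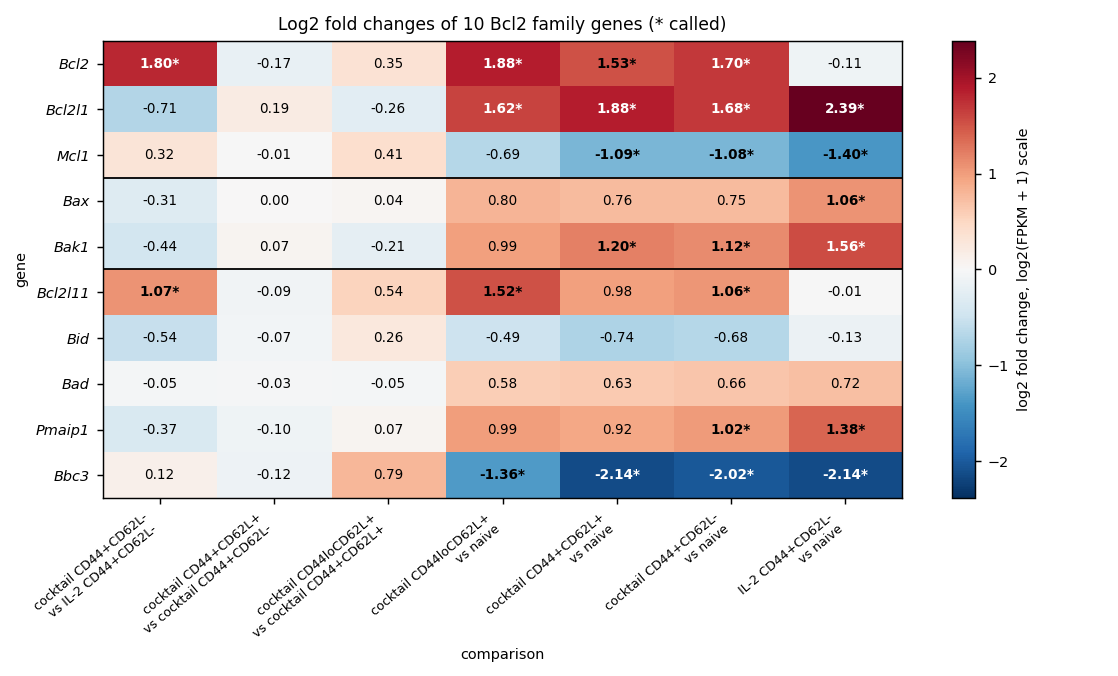
Log2 fold changes of the 10 genes (rows) in 7 comparisons (columns), on the log2(FPKM + 1) scale, with lines between pro-survival, effector and BH3-only genes. A star marks a call, which needed a limma adjusted p below 0.05 and a change of at least 2-fold. Bcl2 and Bcl2l11 carry the calls between cocktail and IL-2 cells, and the comparisons of cocktail populations with each other hold none.

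The comparison of culture conditions set the cocktail CD44+CD62L- cells against the IL-2 CD44+CD62L- cells, which passed the same surface gate. The pro-survival gene Bcl2 and its antagonist Bcl2l11 were both higher in the cocktail cells, and 0 of the 10 genes were called lower by limma (5 at an unadjusted p below 0.05). Thus 2 of 10 were called higher, where 4.64% of the 11242 genes tested were called higher and 3.20% lower. By adjusted p alone 9 of 10 passed, against 84.3% of all genes, the exception being Bad (log2 fold change -0.055, limma adjusted p = 0.240). The median log2 fold change of the 10 genes was -0.18, and that of all genes -0.013. Both effectors and Bcl2l1 stood lower in the cocktail cells by less than the minimum fold, with -0.31 for Bax, -0.44 for Bak1 and -0.71 for Bcl2l1. The summed dendritic cell and macrophage markers were at 293 to 301 FPKM in the cocktail CD44+CD62L- libraries and 175 to 180 in IL-2 libraries, and their part in the result was not tested.

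The gates within the cocktail culture gave no call among these genes. Between cocktail CD44+CD62L+ and cocktail CD44+CD62L- cells, 0 of 10 were called in either direction by limma, beside 0.0356% of all genes higher and 0.0801% lower, and 6 of 10 passed the adjusted p alone, beside 48.3%. The largest of those differences were 0.19 ± 0.0344 for Bcl2l1 and -0.17 ± 0.0164 for Bcl2 on the log2 scale. Between cocktail CD44loCD62L+ and cocktail CD44+CD62L+ cells, 0 of 10 were called by limma, beside 0.418% of all genes higher and 2.26% lower, and 9 of 10 passed the adjusted p alone, beside 73.4%. The CD44loCD62L+ cells had more Bbc3 (0.79), Bcl2l11 (0.54), Mcl1 (0.41) and Bcl2 (0.35) and less Bcl2l1 (-0.26) and Bak1 (-0.21), all under the minimum fold. The medians over the 10 genes were -0.048 for the CD62L gate and 0.16 for the CD44 gate, those of all genes -0.0013 and 0. At an unadjusted p below 0.05, 2 of the 10 were higher and 4 lower for the CD62L gate, and 7 higher and 2 lower for the CD44 gate. With 3 against 3 libraries, an exact two-sided permutation test of a single gene cannot go below 0.1.

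Against naive cells, all 4 cultured populations had more Bcl2l1 and less Bbc3, and the 3 cocktail populations also had more Bcl2. These comparisons share the naive libraries and are therefore not independent of each other. In cocktail CD44loCD62L+ cells 3 of 10 genes were called higher (Bcl2, Bcl2l1 and Bcl2l11) and 1 lower (Bbc3), beside 11.6% of all genes higher and 6.11% lower, and 10 of 10 passed the adjusted p alone, beside 88.6%. The cocktail CD44+CD62L+ cells had 3 called higher (Bcl2, Bcl2l1 and Bak1) and 2 lower (Mcl1 and Bbc3), beside 14.4% and 8.44%, and 10 of 10 by adjusted p alone, beside 90.7%. In the cocktail CD44+CD62L- cells 5 were called higher (Bcl2, Bcl2l1, Bak1, Bcl2l11 and Pmaip1) and 2 lower (Mcl1 and Bbc3), beside 13.9% and 8.59%, and 10 of 10 by adjusted p alone, beside 90.7%. For the IL-2 cells 4 were called higher (Bcl2l1, Bax, Bak1 and Pmaip1) and 2 lower (Mcl1 and Bbc3), beside 17.6% and 13.7%, and 9 of 10 by adjusted p alone, beside 91.8%. The medians over the 10 genes were 0.89, 0.84, 0.89 and 0.35 in that order of populations, those of all genes -0.016, -0.0043, -0.00071 and 0.016. Under quantile normalization the calls over all genes split differently, with 1094 higher and 880 lower in cocktail CD44loCD62L+ cells in place of 1306 and 687, and 1345 and 1225 in cocktail CD44+CD62L+ cells in place of 1615 and 949. In cocktail CD44+CD62L- cells there were 1331 and 1227 in place of 1564 and 966. In IL-2 cells the balance turned, with 1638 higher and 1746 lower in place of 1981 and 1538. The summed B cell markers, at most 6.92 FPKM in cultured and at least 42.9 in naive libraries, moved with all 4 comparisons, and their part in these results was not tested.

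The balance between members was described within each library, with no test. The ratio of Bcl2l11 to Bcl2 averaged 0.588 ± 0.00627, 0.514 ± 0.0114 and 0.484 ± 0.00381 in cocktail CD44loCD62L+, CD44+CD62L+ and CD44+CD62L- cells, 0.807 ± 0.0123 in IL-2 cells and 0.752 ± 0.00758 in naive cells (SD, n = 3 each). Both genes were higher in the cocktail cells, and Bcl2 by more, so the ratio was lowest there. The ratio of Bax to Bcl2 was 1.29 ± 0.0136, 1.61 ± 0.0348 and 1.42 ± 0.0212 in the same cocktail populations, 6.33 ± 0.148 in IL-2 cells and 2.78 ± 0.0670 in naive cells. For Mcl1 to Bcl2 it was 1.30 ± 0.00858, 1.25 ± 0.00418 and 1.12 ± 0.0150 in cocktail cells, 3.21 ± 0.0757 in IL-2 cells and 7.90 ± 0.125 in naive cells. The cocktail libraries lay apart from the IL-2 and naive libraries in all 3 ratios. All 3 have Bcl2 as denominator, which was itself highest in the cocktail cells, so they are not independent of each other.

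Of the summed FPKM of the 3 pro-survival genes, Bcl2 held 40.7%, 40.04% and 43.3% in cocktail CD44loCD62L+, CD44+CD62L+ and CD44+CD62L- cells, 18.7% in IL-2 cells and 11.0% in naive cells. Mcl1 held 52.8%, 50.04% and 48.4% in the cocktail populations, 60.0% in IL-2 cells and 87.1% in naive cells. The share of Bcl2l1 was 6.52%, 9.92% and 8.26% in the cocktail populations, 21.3% in IL-2 cells and 1.91% in naive cells. Mcl1 thus held most of the summed FPKM of these 3 genes in naive cells, while Bcl2 and Mcl1 lay closer together in the cocktail cells. Other pro-survival genes are not in this sum. Among them, Bcl2a1b averaged 37.4 to 41.3 FPKM in the cocktail populations, 53.6 in IL-2 cells and 5.55 in naive cells. The sum of the 3 genes was 259 ± 0.489, 206 ± 2.30 and 214 ± 1.98 FPKM in the cocktail populations, 139 ± 1.85 in IL-2 cells and 254 ± 3.09 in naive cells. The sum of Bax and Bak1 was 191 ± 1.56, 195.3 ± 1.63 and 192 ± 1.43 FPKM in the cocktail populations, 246 ± 3.26 in IL-2 cells and 105 ± 1.37 in naive cells. The BH3-only genes summed to 116 ± 1.06, 87.5 ± 0.534 and 92.7 ± 1.46 FPKM in the cocktail populations. That sum was 77.9 ± 0.812 FPKM in IL-2 cells and 94.0 ± 0.701 in naive cells. The IL-2 cells had the lowest sum of the 3 pro-survival genes, the lowest BH3-only sum and the highest effector sum of the 5 populations.

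**Figure D3:**
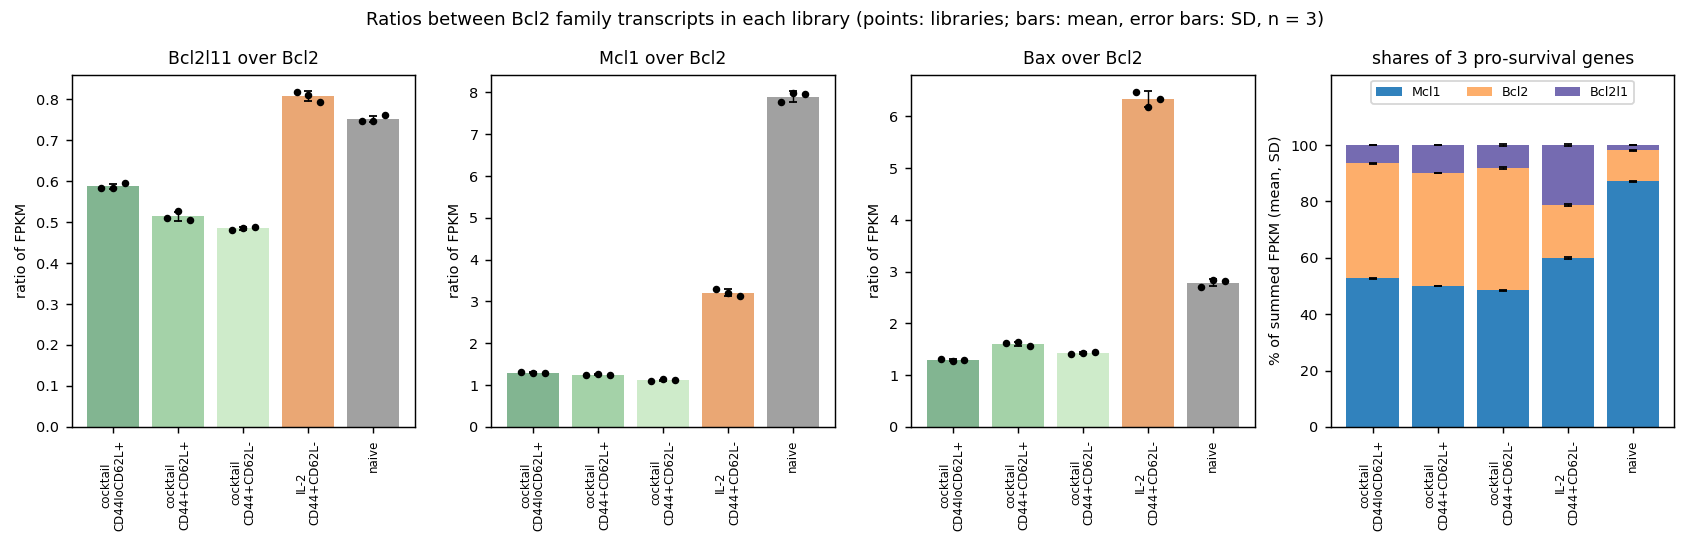
Ratios of FPKM between Bcl2 family genes in each library, and the share of Mcl1, Bcl2 and Bcl2l1 in their summed FPKM, by population. Points are libraries, bars are means and error bars SD (n = 3). Bax over Bcl2 was 6.33 in IL-2 cells, 2.78 in naive cells and at most 1.61 in the cocktail populations.

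The other Bcl2 family genes comprised 16 symbols, of which 10 passed the filter on low values, and Hrk and Bcl2l10 were listed at 0 in every library. Of the 10, Bcl2a1d, Bik, Bcl2a1c and Bmf were under 1 FPKM in naive cells and passed the filter only through cultured cells, so no count or median over the 10 is read against naive cells. Among the other 6, 3 (Bnip3, Bcl2a1b and Bcl2l2) were called higher than in naive cells in each of the 4 cultured populations and 0 lower by limma, beside 11.6%, 14.4%, 13.9% and 17.6% of all genes higher and 6.11%, 8.44%, 8.59% and 13.7% lower in cocktail CD44loCD62L+, CD44+CD62L+, CD44+CD62L- and IL-2 cells. Some of the 6 stood lower by less than the minimum fold. Bcl2l13 did so in cocktail CD44loCD62L+ cells (log2 fold change -0.49, limma adjusted p = 1.06e-09). Bnip3l averaged 36.3 FPKM in IL-2 cells against 57.5 in naive cells. Bnip3, a mitophagy receptor of the family, was at 95.9 ± 2.07, 92.4 ± 1.72 and 99.3 ± 1.32 FPKM in the cocktail populations, 120.1 ± 0.901 in IL-2 cells and 2.81 ± 0.492 in naive cells (SD, n = 3 each). Bcl2a1b and Bcl2a1d, pro-survival genes of the A1 family, also rose in all 4 cultured populations, by 2.55 to 3.06 and 3.14 to 3.91 on the log2 scale. As near-identical copies they can share reads, so the split between them is uncertain. Bcl2l2, which encodes the pro-survival Bcl-w, rose by 1.46 to 1.85 on the log2 scale in the 4 populations, and all 4 calls were lost at a pseudocount of 5 FPKM (0.74 to 0.99). The BH3-only gene Bik rose in IL-2 cells (1.45 ± 0.129, limma adjusted p = 1.07e-07), with 3.59 ± 0.144 FPKM there and 0.685 ± 0.161 in naive cells, and 0.60 at a pseudocount of 5 FPKM. Bnip3l, another mitophagy receptor, was the gene of this list called between cocktail CD44+CD62L- and IL-2 cells, at 78.2 ± 1.81 against 36.3 ± 0.684 FPKM (log2 fold change 1.09). Of the 10, 1 was thus called higher and 0 lower, beside 4.64% and 3.20% of all genes. At an unadjusted limma p below 0.05, 2 were higher and 7 lower. These counts include Bmf and Bcl2a1c, which passed the filter only through IL-2 cells, so they are not read as a result on the list.

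Downstream of the mitochondria, all 12 apoptosome, caspase and caspase inhibitor genes were tested, and 3, 3, 3 and 4 were called higher than in naive cells in the cocktail CD44loCD62L+, CD44+CD62L+, CD44+CD62L- and IL-2 cells, with 0 lower by limma (2, 3, 3 and 4 at an unadjusted p below 0.05). The shares of all genes called higher were 11.6%, 14.4%, 13.9% and 17.6%, and those called lower 6.11% to 13.7%. The list's medians were 0.066, 0.23, 0.18 and 0.24 on the log2 scale, beside -0.016, -0.0043, -0.00071 and 0.016 for all genes, and -0.075 in cocktail CD44+CD62L- against IL-2 cells, beside -0.013. Apaf1, the scaffold of the apoptosome, rose by 1.34 to 1.65 on the log2 scale in the 4 populations, and Cycs, cytochrome c, rose in IL-2 cells (1.40). Birc5, which encodes survivin, an inhibitor of apoptosis that also acts in mitosis, was at 82.0 ± 0.437, 250.3 ± 4.41 and 199.9 ± 3.73 FPKM in the cocktail populations, 250.5 ± 4.41 in IL-2 cells and 1.85 ± 0.313 in naive cells. It was the gene of the list called between cocktail CD44loCD62L+ and cocktail CD44+CD62L+ cells (log2 fold change -1.60 ± 0.0534, limma adjusted p = 1.07e-11). In that comparison 0.418% of all genes were called higher and 2.26% lower. All 12 genes of the list passed the adjusted p alone, beside 73.4% of all genes. Birc2, an inhibitor of apoptosis and ubiquitin ligase, was higher in cocktail CD44+CD62L- than in IL-2 cells, at 35.1 ± 0.585 against 16.4 ± 0.265 FPKM (log2 fold change 1.05, and 0.90 at a pseudocount of 5 FPKM, where the call was lost).

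Among 10 death receptor pathway genes, all tested, Fas had the largest difference between cocktail CD44+CD62L- and IL-2 cells. Fas, the receptor for Fas ligand, was at 42.3, 42.4 and 40.7 FPKM in the cocktail CD44loCD62L+ libraries, 33.9, 34.1 and 33.8 in cocktail CD44+CD62L+, 33.6, 36.1 and 34.8 in cocktail CD44+CD62L-, 2.20, 1.84 and 1.76 in IL-2 and 30.7, 32.3 and 30.3 in naive libraries. The IL-2 libraries were far below all others. The log2 fold change was 3.61 ± 0.0459 for cocktail CD44+CD62L- against IL-2 cells (limma adjusted p = 2.74e-16) and -3.45 ± 0.0459 for IL-2 against naive cells. Its ligand gene Fasl rose in all 4 cultured populations, to 29.3 ± 0.971, 31.5 ± 0.611 and 35.0 ± 0.707 FPKM in cocktail and 45.6 ± 0.768 in IL-2 cells, against 0.315 ± 0.0172 in naive cells. Tnfsf10, which encodes TRAIL, was higher in cocktail CD44+CD62L- than in IL-2 cells (log2 fold change 1.37) and rose in the 3 cocktail populations against naive cells (1.01, 1.43 and 1.58). The value of 1.01, for CD44loCD62L+ cells, lost its call without replicate 3 of the naive cells (0.98) and at a pseudocount of 5 FPKM (0.80). Cflar, an inhibitor of caspase 8 activation, fell in cocktail CD44+CD62L- (-1.01) and IL-2 cells (-1.13) against naive cells. Both calls were lost at a pseudocount of 5 FPKM (-0.85 and -0.96), and the first also without replicate 1 of the naive cells (-0.99). In this list 2 genes were called higher and 0 lower by limma between the cultures (4 lower at an unadjusted p below 0.05), beside 4.64% and 3.20% of all genes, with a median of -0.045 beside -0.013. Fasl was under 1 FPKM in naive cells and passed the filter only through cultured cells. No count or median that includes it is therefore read against naive cells. Among the other 9, limma called 1, 1, 1 and 0 higher in cocktail CD44loCD62L+, CD44+CD62L+, CD44+CD62L- and IL-2 cells. In the same order 0, 0, 1 and 2 were called lower, and 5 were lower in each at an unadjusted p below 0.05. Of all genes, 11.6% to 17.6% were called higher and 6.11% to 13.7% lower in these comparisons.

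**Figure D4:**
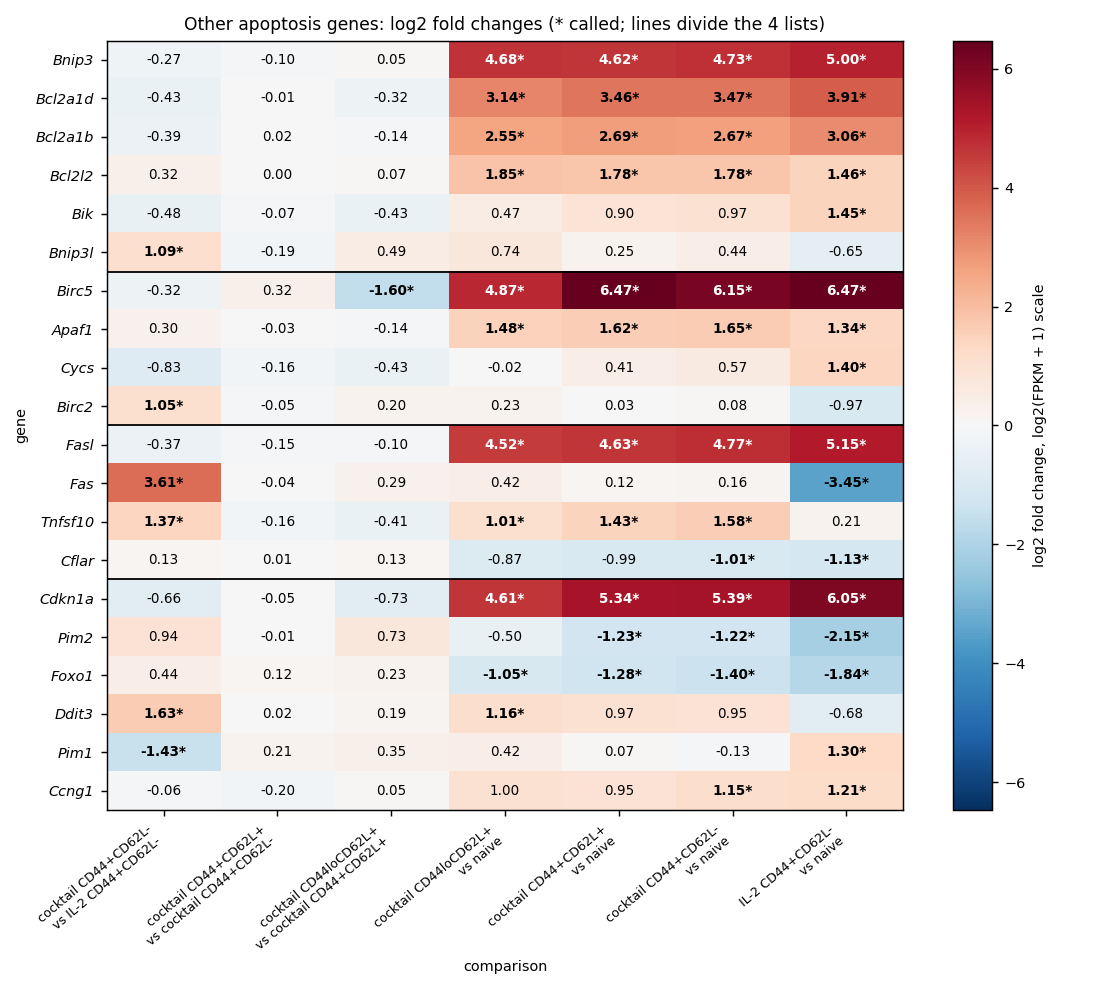
Log2 fold changes on the log2(FPKM + 1) scale of 20 other apoptosis genes (rows) in the 7 comparisons (columns). Lines divide other Bcl2 family genes, apoptosome and caspase genes, death receptor genes and regulators, and a star marks a call. Fas stood 3.61 higher in cocktail CD44+CD62L- than in IL-2 cells and lower in IL-2 than in naive cells (-3.45).

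The last list held 12 regulators of Bcl2 family genes and proteins, all tested. Foxo1, which supports quiescence and homing of T cells, fell in every cultured population against naive cells, to 27.8 ± 0.180, 23.5 ± 0.302 and 21.6 ± 0.281 FPKM in the cocktail populations and 15.7 ± 0.292 in IL-2 cells, against 58.7 ± 0.808 in naive cells. Of these calls, that of the cocktail CD44loCD62L+ cells (-1.05) was lost at a pseudocount of 5 FPKM (-0.96). Cdkn1a, Ccng1 and Mdm2 are known p53 targets. Mdm2 averaged 33.3 to 35.8 FPKM in the cultured populations and 32.5 in naive cells. Cdkn1a, an inhibitor of the cell cycle, rose to 24.7 ± 0.990, 41.8 ± 0.405 and 43.2 ± 1.16 FPKM in the cocktail populations and 68.8 ± 0.677 in IL-2 cells, against 0.0539 ± 0.0311 in naive cells. Of the members known as targets of the same factor, Bbc3 fell in all 4 cultured populations. Pmaip1 stood 0.92 to 1.38 higher there on the log2 scale, and Bax, also known as a p53 target, 0.75 to 1.06 higher. Trp53, which encodes p53, averaged 76.7 to 92.8 FPKM in the cultured populations and 127 in naive cells. The part of p53 was not tested. Ccng1 rose in cocktail CD44+CD62L- (1.15) and IL-2 cells (1.21, and 0.97 under quantile normalization, where the call was lost). Ddit3, which encodes the stress factor CHOP, was at 34.9 ± 0.790 FPKM in cocktail CD44+CD62L- cells against 10.6 ± 0.166 in IL-2 cells (log2 fold change 1.63). It also rose in cocktail CD44loCD62L+ cells against naive cells (1.16). The Pim kinases, which can phosphorylate Bad, went different ways. Pim1 was lower in cocktail CD44+CD62L- than in IL-2 cells (-1.43), at 50.9 ± 0.592 against 139 ± 2.86 FPKM, and rose in IL-2 against naive cells (1.30). Pim2 fell against naive cells in cocktail CD44+CD62L+ (-1.23), cocktail CD44+CD62L- (-1.22) and IL-2 cells (-2.15). Between the cultures 1 regulator was called higher and 1 lower. Cdkn1a was under 1 FPKM in naive cells and passed the filter only through cultured cells. No count or median that includes it is therefore read against naive cells. Among the other 11, limma called 1, 0, 1 and 2 higher in the cocktail CD44loCD62L+, CD44+CD62L+, CD44+CD62L- and IL-2 cells. In the same order 1, 3, 3 and 4 were called lower. Of all genes, 4.64% were called higher and 3.20% lower between the cultures, and 11.6% to 17.6% higher and 6.11% to 13.7% lower against naive cells. The list's median was 0.19 between the cultures, beside -0.013 for all genes.

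The genes most like each member were described by Pearson's r over the 15 libraries, among 2189 genes with a mean of at least 10 FPKM that varied at least 2-fold. As the libraries form 5 populations, r reflects mostly the order of the 5 means. Bcl2 was most like Slc4a7 (r = 0.998), Gbp10 (0.996) and Phlpp1 (0.995). Slc4a7 had 16.1, 12.6 and 15.1 FPKM in the cocktail populations, 3.77 in IL-2 cells and 3.77 in naive cells. Bcl2l11 was most like Pyhin1 (r = 0.9994), Traf1 (0.994) and Mgst2 (0.993), and Pyhin1 had 278, 202 and 215 FPKM in the cocktail populations, 108 in IL-2 cells and 108 in naive cells. The 3 genes nearest to Bcl2 and the 3 nearest to Bcl2l11 held none in common. All of them, like both members, had higher means in the 3 cocktail populations than in IL-2 and naive cells. Bcl2l1 and Bak1 shared Irf8 and Tbx21 among their 3 nearest genes (r = 0.997 to 0.998), both transcription factors of effector T cells. Tbx21 had 15.8, 21.3 and 19.1 FPKM in cocktail, 37.9 in IL-2 and 2.32 in naive cells. Bax and Pmaip1 shared Ncl and Tigit (r = 0.996 to 0.997 and 0.996), Ncl being a nucleolar protein and Tigit an inhibitory receptor. Mcl1 was most like Zc3h11a, Phf1 and Chd2 (r = 0.998 each), and Bbc3 most like Ube2h (0.998), Prkcq (0.996) and Akap13 (0.996), all of them highest in naive cells.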

How the data were processed

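Values are FPKM that the authors deposited in 1 table with a column per library; alignment and abundance estimation with TopHat2 2.0.9 and Cuffdiff 2.1.1 on mm10 are named per the submitters' processing notes. Annotation, settings and strand use were not given in the sources used here. Sequencing depth is unknown. A library's FPKM summed to between 669341 and 781949, and a listed 0 may be an estimate that failed. Values were taken to log2(FPKM + 1), and the 11242 of 23284 entries whose mean reached 1 FPKM in some population were kept. The linear model (limma 3.58.1, R 4.3.3, lmFit and eBayes with trend) took all 15 libraries and had no term but population. A log2 fold change on this scale understates the change of low genes. A call needed a Benjamini-Hochberg adjusted p below 0.05 over all genes tested and at least 2-fold. The steps were tested on simulated data. Members and lists were chosen with earlier results of these data known. All members were named, and of each other list the genes called in any of 7 comparisons, at most the 6 that varied most; 1 of these is not reported here. Likeness took the 3 genes with the highest Pearson r, leaving out predicted genes, Rik clones, small RNAs and antigen receptor segments. Gene positions are GENCODE gene spans on GRCm38, the assembly mm10 names; promoters are from RefSeq. Alternatives were pseudocounts of 0.1 and 5 FPKM, other filters, median-ratio scaling, quantile normalization, no variance trend, the 6 libraries compared, a replicate block, no minimum fold and leaving out each library. Python 3.11.15 and matplotlib 3.10.9 served for description and figures.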

Additional observations from a re-analysis of the deposited data

How the results depend on the processing

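Other filters, median-ratio scaling, no variance trend and fits to the 6 libraries compared changed no call of a member and moved no count by over 1.5 times. In the order of cocktail CD44+CD62L- against IL-2, cocktail CD44+CD62L+ against CD44+CD62L-, cocktail CD44loCD62L+ against CD44+CD62L+, and CD44loCD62L+, CD44+CD62L+, CD44+CD62L- and IL-2 against naive cells, a pseudocount of 5 FPKM gave 379, 7, 178, 1014, 1412, 1393 and 2038 calls over all genes, and 1 member in the first comparison. A pseudocount of 0.1 FPKM gave 1393, 41 and 495 calls over all genes in the first 3. With no minimum fold, 9479, 5432, 8251, 9956, 10198, 10192 and 10321 genes passed, and 9, 6, 9, 10 and 10 members in the first 5. Under quantile normalization the log2 fold change of Mcl1 between cocktail CD44+CD62L+ and CD44+CD62L- cells turned to 0.0082. Leaving out each library, it ran from -0.020 to 0.0017, that of Bax from -0.0040 to 0.011 and that of Bad from -0.053 to 0.0055 in the same comparison, and that of Bcl2l11 between IL-2 and naive cells from -0.016 to 0.0042. All of these lay far under the minimum fold, and the cause was not tested. Members called ran, in the order above, from 2 to 2, 0 to 0, 0 to 0, 4 to 5, 5 to 5, 6 to 7 and 6 to 6 when each library was left out. The deviations of same-numbered libraries correlated at -0.238 to 0.184 over 21 pairs, those of different numbers at -0.241 to 0.247 over 42. No pairing by number was thus seen, but deviations within groups of 3 libraries cannot exclude it. With the replicate block 2 members were called in the first comparison, and no call of a member or named gene changed. With technical libraries and unknown depth, small standard errors bound only the spread between libraries.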
